A study of Mus musculus with 12 samples.

Results

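The 44 genes described here are the mouse cell cycle and DNA replication genes of a list made by name, 19 that act in or before S phase and 25 that act in mitosis. The list was chosen with earlier results of these data known. All 44 were found by symbol among the 16920 genes of the deposited tables, and all 44 were among the 12064 genes abundant enough to be tested. They were measured in 12 RNA sequencing libraries of peritoneal macrophages, 3 in each of 4 groups. The groups were wild-type (WT) cells with PBS, WT cells with bacterial lipopolysaccharide (LPS, 1 µg/mL), Ythdf1 knockout (KO) cells with PBS, and KO cells with LPS, each for 6 h after overnight culture. YTHDF1, the product of the targeted gene, is a reader of the RNA mark m6A, and the series was made to ask how its loss bears on the macrophage response to LPS. According to the published methods, both genotypes were on the C57BL/6 background, 6 to 10 weeks old, and the knockout was present in the whole animal. The labels do not give the age or sex of the mice behind each library, and the published study names male mice for a related protein experiment on WT peritoneal macrophages. The series record gives an intraperitoneal injection of 6% starch broth, 3 days before harvest, as the elicitation, and the published methods give thioglycollate. The labels call the replicates independent biological samples but do not say whether each came from 1 mouse or from a pool.

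Cells that divide pass from G1 through S phase, where the genome is copied, into mitosis, where the copies are separated. Genes for DNA replication are switched on late in G1 by E2F transcription factors once the cyclin-dependent kinases have lifted the block set by the retinoblastoma family, and genes for mitosis follow under MYBL2, FOXM1 and the MuvB complex. Most elicited peritoneal macrophages do not divide, and signalling through the LPS receptor is known to halt the proliferation of macrophages that growth factors drive. In bulk samples fewer cycling cells and less RNA per cycling cell cannot be told apart.

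The promoters of the members with the largest fall under LPS in WT cells are printed here, 2 of each class, as examples of the sequence before genes that fell. Windows of 300 bases, from 250 before to 50 after each annotated start, came from RefSeq on GRCm38.p6. Windows were found for 17 of the 19 S-phase genes and 20 of the 25 mitotic genes. Foxm1, Kif20a, Mcm4, Tpx2, Ccna2, Ccne2 and Aurkb had none. The motifs searched, on both strands, were E2F (TTTCCCGC, TTTCGCGC, TTTGCCGC or TTTGGCGC), the cell cycle homology region CHR (TTTGAA or TTCGAA) and the CCAAT box. Below, capitals mark each CHR and CCAAT match, and a match on the opposite strand reads TTCAAA or ATTGG. None of the 4 windows held an E2F match. Mcm2, chr6:88898731-88899030, minus strand, and Cdc45, chr16:18811923-18812222, minus strand, belong to the S-phase genes. Kif23, chr9:61946750-61947049, minus strand, and Bub1, chr2:127831810-127832109, minus strand, belong to the mitotic genes.
Mcm2: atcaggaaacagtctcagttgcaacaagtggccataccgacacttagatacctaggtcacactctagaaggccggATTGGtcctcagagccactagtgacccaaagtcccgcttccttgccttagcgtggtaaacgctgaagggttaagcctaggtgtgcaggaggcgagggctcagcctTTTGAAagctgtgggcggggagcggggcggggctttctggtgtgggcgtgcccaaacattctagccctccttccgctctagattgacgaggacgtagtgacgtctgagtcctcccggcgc
Cdc45: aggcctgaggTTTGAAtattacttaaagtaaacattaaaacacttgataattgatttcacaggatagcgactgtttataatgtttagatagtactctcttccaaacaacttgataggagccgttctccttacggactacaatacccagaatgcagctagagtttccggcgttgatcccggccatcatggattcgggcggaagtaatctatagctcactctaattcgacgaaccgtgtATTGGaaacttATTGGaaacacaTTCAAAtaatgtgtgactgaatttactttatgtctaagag
Kif23: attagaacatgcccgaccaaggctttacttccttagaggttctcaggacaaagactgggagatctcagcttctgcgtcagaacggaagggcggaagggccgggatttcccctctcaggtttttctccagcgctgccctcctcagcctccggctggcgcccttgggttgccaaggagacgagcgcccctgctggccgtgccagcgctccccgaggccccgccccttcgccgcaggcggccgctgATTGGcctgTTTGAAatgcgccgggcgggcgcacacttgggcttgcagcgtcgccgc
Bub1: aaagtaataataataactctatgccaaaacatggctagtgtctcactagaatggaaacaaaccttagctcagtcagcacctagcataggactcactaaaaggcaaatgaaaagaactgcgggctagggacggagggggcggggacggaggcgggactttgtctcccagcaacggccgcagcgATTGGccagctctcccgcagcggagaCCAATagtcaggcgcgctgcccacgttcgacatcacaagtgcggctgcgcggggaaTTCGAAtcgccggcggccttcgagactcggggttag

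In all 4 windows a CCAAT box lay upstream of a CHR match, which was near the start in Kif23, Bub1 and Cdc45 and 70 bases before it in Mcm2. Mcm2 and Cdc45 are thus among the few S-phase windows with both. The pair was not limited to genes that fell. It was also present in the windows of E2f8 and Mki67, which rose with LPS in WT (log2 fold changes 0.92 and 0.51). A CHR match together with a CCAAT box was present in 16 of the 21 mitotic windows (76.2%), in 4 of the 18 S-phase windows (22.2%) and in 7.52% of all 32851 mouse windows. CCAAT alone was found in 85.7% of the mitotic, 66.7% of the S-phase and 37.4% of all windows. An E2F match was present in 6 of the S-phase windows (33.3%), in 1 of the mitotic windows (4.76%) and in 2.26% of all windows. These are matches of letters, not sites of binding, and the windows of 1 gene can overlap.

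Total counts lay between 21546274 and 22017005 per library, and levels are given as CPM, the count of a gene as a share of the library, rescaled by TMM (trimmed mean of M values) factors so that most genes balance between libraries. The floor used here, 3 counts, equalled 0.105 to 0.187 CPM, and it covers counting error only. Ythdf1 was not lower in the libraries labelled KO, with 55.4 to 58.1 CPM against 41.9 to 45.0 in WT under PBS and 192 to 205 against 194 to 212 under LPS. In the test described below it passed as higher in the KO-labelled libraries with PBS (log2 fold change 0.40) and did not pass with LPS (-0.03). The gene totals do not show which exons the reads came from, and the genotype is used here as the label of the libraries. Replicate 1 of the WT LPS group stood apart from replicates 2 and 3 (mean chi-square per gene of 33.6 and 26.2, against 3.09 between the other 2). Replicates 2 and 3 of KO LPS differed by 17 on this measure and the other KO LPS pairs by 6.11 and 7.44, against 2.78 to 4.73 in the PBS groups. Of the 44 genes, 13 had fractional counts in at least 11 of the 12 libraries, which marks reads shared with other genes, and their values are uncertain to that extent. These were Mcm5, Mcm10, Tyms, Ccne2, E2f1, Ccna2, Birc5, Ube2c, Cenpf, Kif11, Kif20a, Tpx2 and Prc1. Exons of 14 overlap those of other genes, and strand use in counting is not given in the sources used here, so reads of the partners may be included. These were Mcm7, Cdc45, Tk1, Ccne2, E2f8, Ccna2, Foxm1, Plk1, Cdc20, Ube2c, Kif20a, Nusap1, Prc1 and Top2a. Markers of macrophages summed to 17500 to 20800 CPM in all libraries, so the labelled cell type was present throughout. Markers of B cells, T cells, neutrophils, mast cells and eosinophils summed to at most 3.57 CPM in any library, over lists from which Ighm, Trac, Ly6g, Ngp, Epx and Prg2 were not analysed here. 

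At rest, the S-phase genes were more abundant than the mitotic genes. In WT cells with PBS the median level per kilobase of transcript was 4.92 CPM over the S-phase genes and 1.62 CPM over the mitotic genes. Pcna, the sliding clamp that holds DNA polymerase on its template and also serves in DNA repair, was the highest by this measure at 98.0 CPM per kilobase. Cdt1, which loads the replicative helicase at origins, followed with 14.3, and the helicase subunit Mcm3 with 13.1. The lowest were Cenpf, a kinetochore protein, at 0.0785, and Cenpe, a kinetochore motor, at 0.242 CPM per kilobase. Over the mitotic genes the highest was Ccna2, which encodes cyclin A2, at 3.17.

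**Figure D1:**
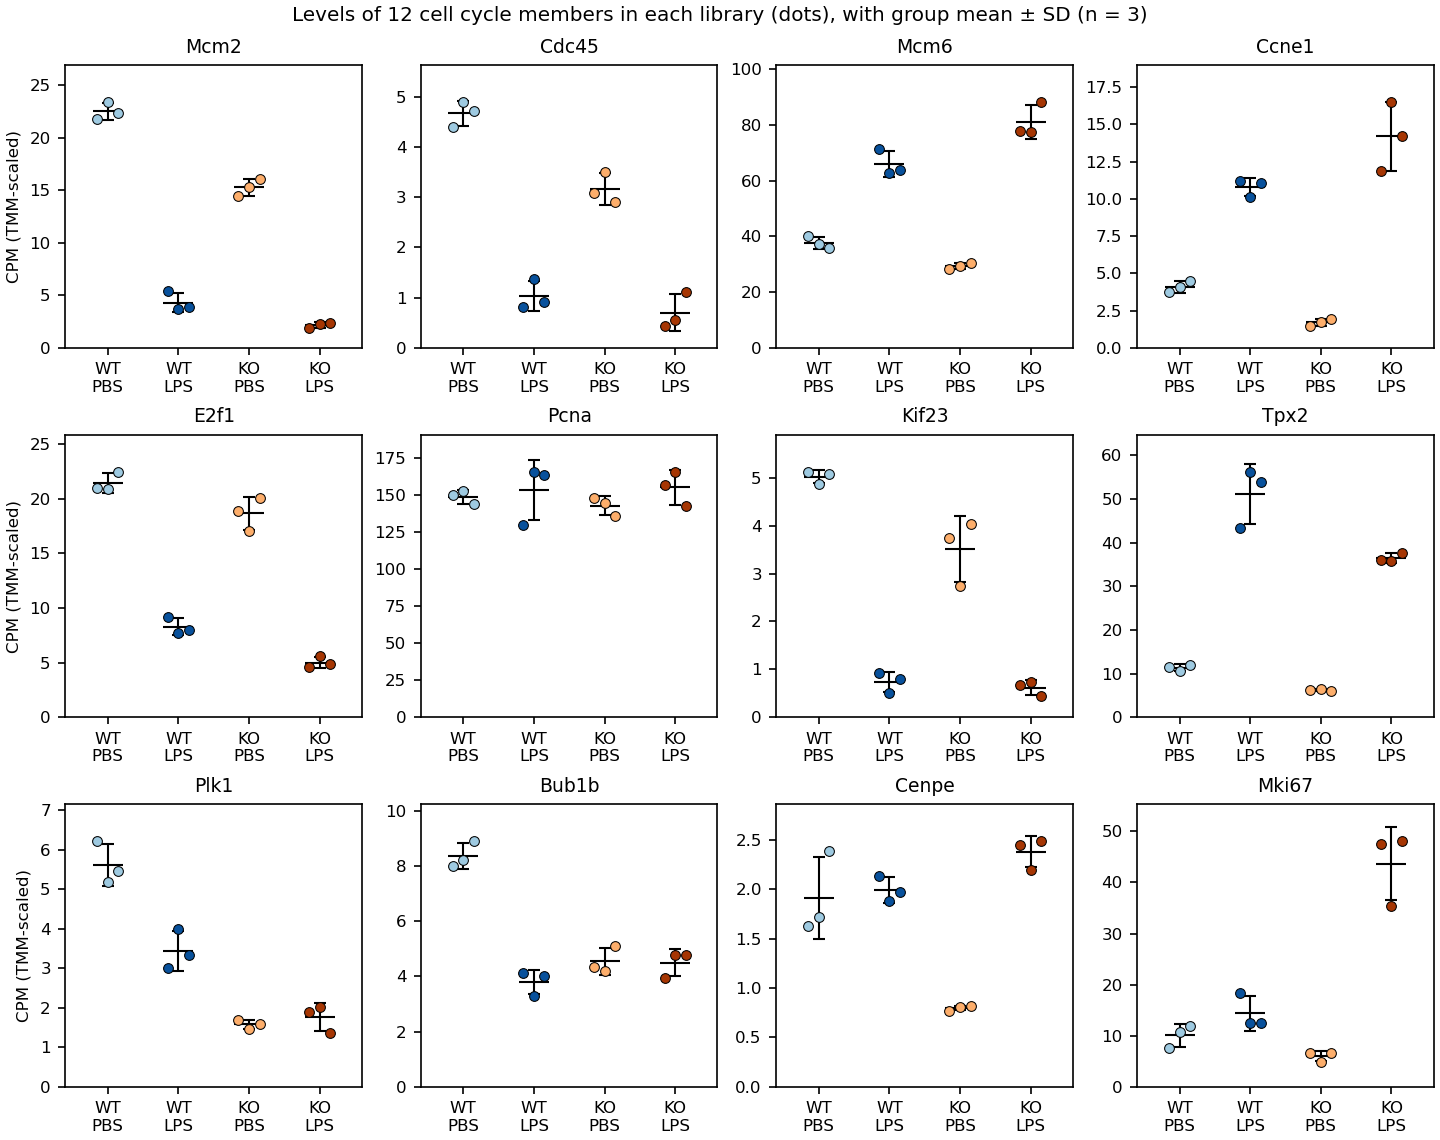
CPM (vertical axis, TMM-scaled, from 0) of 12 members in each of the 12 libraries, by group. Dots are libraries, and the bar and whiskers are the group mean and SD (n = 3). Mcm2, Cdc45, E2f1 and Kif23 are low in both LPS groups, Mcm6, Ccne1 and Tpx2 are high in both, Plk1 and Bub1b are highest in WT with PBS, and Mki67 is high in the KO-labelled LPS libraries, at 35.4 to 48.1 CPM.

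The first comparison asked what 6 h of LPS did to these genes in WT macrophages. Most of them fell. Of the 44 genes, 34 were lower and 8 higher with LPS in edgeR's quasi-likelihood test (Benjamini-Hochberg adjusted p under 0.05), and 2 did not pass. Over all genes tested, 40.2% were lower and 36.5% higher. The median log2 fold change was -0.97 over the 44 genes and -0.0483 over all genes tested.

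Of the 10 genes that license and open replication origins 7 fell and 3 rose. Mcm2 (gene 17216, chromosome 6 from 88883474 to 88898780) encodes a subunit of the MCM2-7 helicase, and its promoter is shown above. Its levels were 21.8, 23.4 and 22.4 CPM with PBS and 5.38, 3.70 and 3.84 CPM with LPS, so that every LPS library lay far below every PBS library. The log2 fold change was -2.39 ± 0.112 (SE, n = 3 per group, adjusted p = 3.45e-12). Cdc45, which joins the MCM ring to form the active helicase, went from 4.41, 4.90 and 4.72 CPM to 0.810, 1.37 and 0.903 CPM. That is a log2 fold change of -2.18 ± 0.215 (adjusted p = 8.1e-08), on 14 to 24 counts per LPS library. The ring subunits Mcm3, Mcm4, Mcm5 and Mcm7 fell by 1.48, 1.16, 0.81 and 1.40 on the log2 scale, and the loading factor Cdc6 by 1.32.

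The sixth subunit of the same ring moved the other way. Mcm6 (gene 17219, chromosome 1 from 128331575 to 128359705) rose from 40.0, 37.2 and 35.8 CPM to 71.4, 62.7 and 63.8 CPM, with no overlap between the groups. Its log2 fold change was 0.81 ± 0.0726 (adjusted p = 2.46e-08), and the sign held under all scalings, although the call was lost when libraries were scaled by their totals alone. Mcm10, which takes part in the firing of origins, rose from 3.72, 3.47 and 3.32 CPM to 8.62, 9.62 and 6.99 CPM (log2 fold change 1.26 ± 0.145, adjusted p = 5.65e-07). Cdt1 was the third gene of its class to pass upwards, by 0.32 ± 0.0745 (adjusted p = 0.000996), but it was called lower with totals alone (-0.35, adjusted p = 0.000202) and did not pass with upper-quartile scaling.

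Of the genes that supply deoxynucleotides, both subunits of ribonucleotide reductase and thymidine kinase fell. Rrm2, the subunit that limits the enzyme in S phase, went from 9.76, 9.01 and 8.76 CPM to 3.35, 3.07 and 3.38 CPM (log2 fold change -1.49 ± 0.122, adjusted p = 7.31e-09). Rrm1 fell by 0.91 and Tk1 by 1.66 on the log2 scale. Tyms, the thymidylate synthase gene, instead rose by 0.61 ± 0.102 (adjusted p = 4.25e-05), which was -0.052 with totals alone. Pcna did not pass the test. Its levels were 150, 153 and 144 CPM with PBS and 130, 166 and 164 CPM with LPS, and the groups overlapped (log2 fold change 0.04 ± 0.0821, adjusted p = 0.649). Pcna was called lower with upper-quartile scaling (-0.27, adjusted p = 0.0136) and with totals alone (-0.62, adjusted p = 5.38e-06), and higher when replicate 1 of the WT LPS group was left out.

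The G1/S regulators split evenly. Ccne1, the cyclin E1 gene, rose from 3.72, 4.08 and 4.50 CPM to 11.2, 10.1 and 11.1 CPM (log2 fold change 1.39 ± 0.128, adjusted p = 3.18e-08). E2f8, a repressor of the E2F family that is itself switched on in S phase, rose by 0.92 ± 0.0973 (adjusted p = 2.01e-07). E2f1, the activating family member, fell from 21.0, 20.9 and 22.5 CPM to 9.20, 7.74 and 7.95 CPM (log2 fold change -1.37 ± 0.0915, adjusted p = 4.56e-10). Ccne2 fell by 1.11 on 5 to 15 counts per LPS library. This call for Ccne2 was lost without replicate 2 or 3 of WT PBS or replicate 3 of WT LPS, where the log2 fold change lay between -1.16 and -0.75 (adjusted p 0.0536 to 0.154).

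The mitotic genes fell almost as a block. Of the 25, 22 were lower, 2 were higher and 1 did not pass, with a median log2 fold change of -0.95. All 6 genes for mitotic cyclins, Cdk1 and their transcription factors fell, by 0.64 (Ccnb2) to 1.24 (Ccnb1) on the log2 scale. So did all 6 for mitotic kinases and the spindle checkpoint, by 0.71 (Plk1) to 1.59 (Bub1). Both genes of mitotic exit fell, Cdc20 by 0.55 and Ube2c by 0.44, but neither passed after correction for GC content (Cdc20 -0.395, adjusted p = 0.0832, and Ube2c -0.281, adjusted p = 0.068). The calls for Ccnb2, Cdc20 and Cenpf (-0.93 ± 0.333) were lost in 2, 3 and 3 of the 12 fits without 1 library, at -0.56 to -0.55, -0.50 to -0.42 and -0.85 to -0.75. Kif23 (gene 71819, chromosome 9 from 61917277 to 61946810) encodes a kinesin of the central spindle that is needed for cytokinesis. It had the largest fall of all 44 genes, from 5.13, 4.87 and 5.08 CPM to 0.925, 0.512 and 0.790 CPM, a log2 fold change of -2.75 ± 0.216 (adjusted p = 4.2e-09) on 9 to 16 counts per LPS library. Bub1, a kinase of the spindle checkpoint, went from 1.88, 1.93 and 2.39 CPM to 0.752, 0.569 and 0.733 CPM (log2 fold change -1.59 ± 0.251, adjusted p = 2.2e-05). In both genes each LPS library lay below each PBS library.

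Tpx2 and Mki67 were the exceptions. Tpx2 (gene 72119, chromosome 2 from 152847964 to 152895321) encodes a spindle assembly factor that activates Aurora A kinase. It rose from 11.5, 10.5 and 12 CPM to 43.4, 56.3 and 53.9 CPM, a log2 fold change of 2.17 ± 0.0905 (adjusted p = 6.94e-13) that remained positive under all scalings. Its partner Aurka fell over the same 6 h by 0.95 ± 0.173 (adjusted p = 9.45e-05). Mki67, the gene of the Ki-67 proliferation marker, was at 7.63, 10.7 and 11.8 CPM with PBS and at 18.4, 12.4 and 12.4 CPM with LPS, where the highest value was that of the library that stood apart. Its log2 fold change of 0.51 ± 0.208 passed narrowly (adjusted p = 0.0397) and was not robust. It was 0.30 (adjusted p = 0.241) without that library, the call was also lost without replicate 1 or 2 of WT PBS (adjusted p at least 0.0546), it did not pass with upper-quartile scaling or with no filter, and the value was -0.15 with totals alone. Cenpe did not pass, with 1.63, 1.72 and 2.39 CPM against 2.14, 1.88 and 1.97 CPM, a log2 fold change of 0.06 ± 0.182, but it was called lower with totals alone (-0.60, adjusted p = 0.00559).

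Scaling bears on every LPS comparison here, because TMM factors were 1.26 to 1.31 in the PBS libraries and 0.744 to 0.808 in the LPS libraries. With totals alone the median log2 fold change of all genes moved by -0.663 in WT and by -0.80 in KO-labelled cells. The split of called genes over the whole table moved from 47.6% higher to 21.2% in WT and from 48.6% to 20.8% in KO-labelled cells. With upper-quartile scaling those shares were 32.5% and 33.8%. On totals alone 37 of the 44 members were lower and 4 higher in WT. Without replicate 1 of WT LPS, the library that stood apart, 33 were lower and 8 higher.

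**Figure D2:**
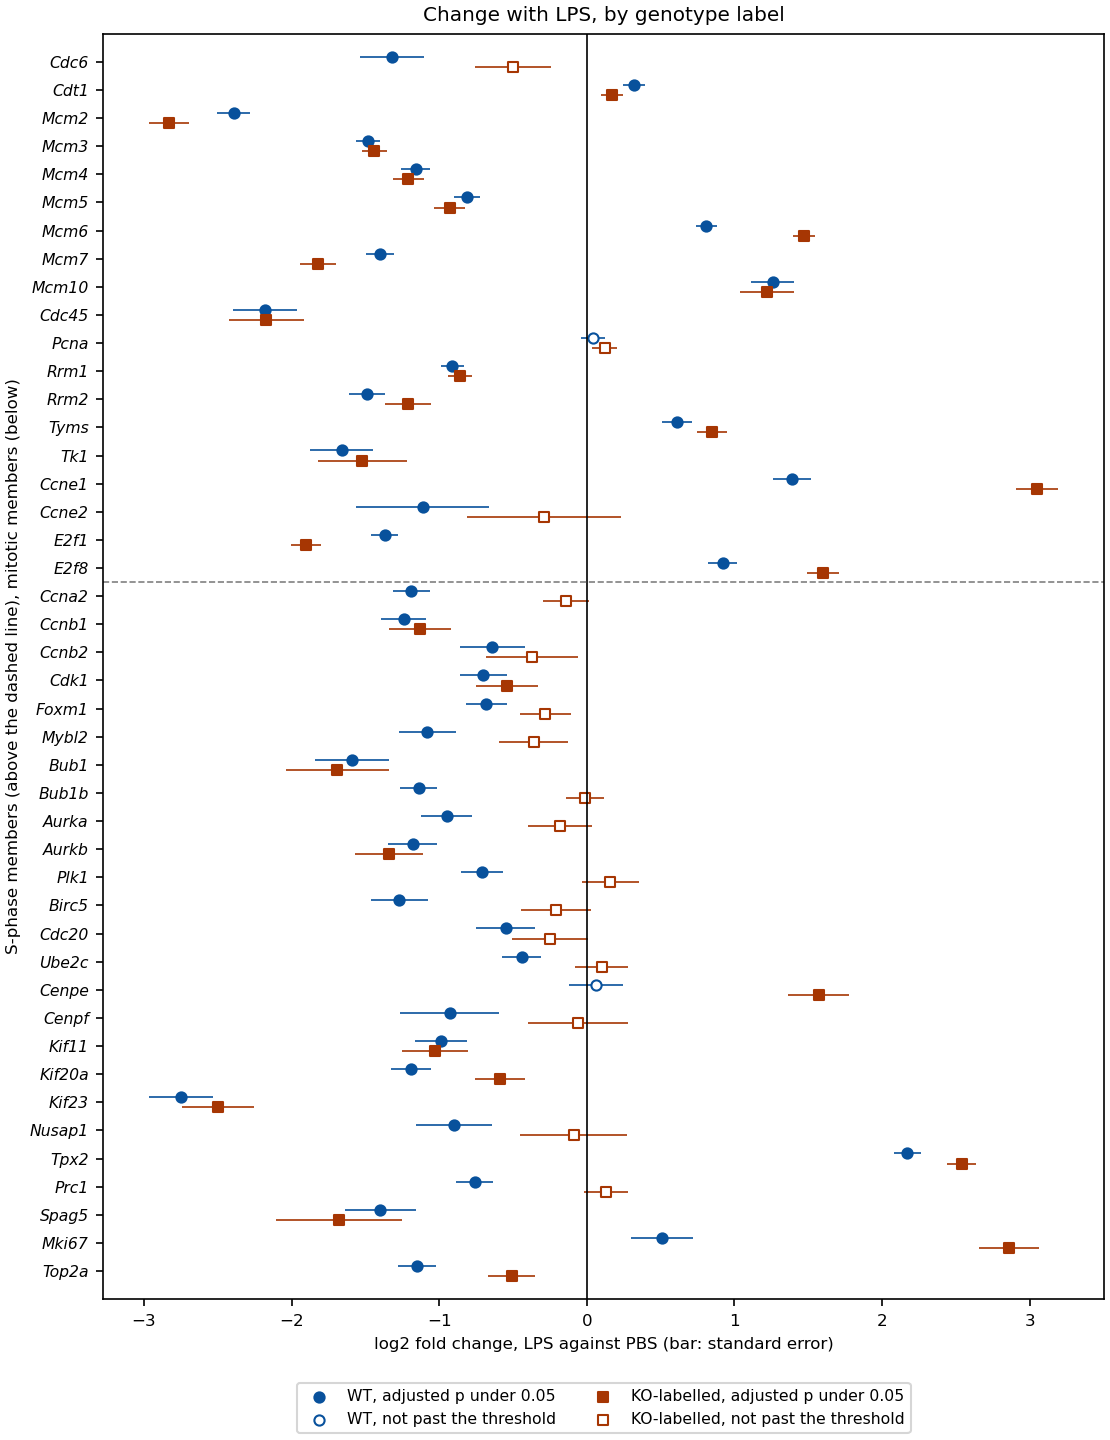
Log2 fold change for LPS against PBS (horizontal axis, standard error as bars) of each of the 44 genes, in WT (circles) and KO-labelled cells (squares). Filled symbols passed an adjusted p of 0.05, and the dashed line separates S-phase from mitotic genes. The 2 symbols lie close together for most S-phase genes, while many mitotic genes lie left of 0 in WT and near 0 in KO-labelled cells, and Mki67 is at 0.51 and 2.86.

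In the libraries labelled KO the same comparison gave fewer falls. With LPS 19 of the 44 genes were lower, 9 were higher and 16 did not pass, against 41.1% lower and 38.8% higher over all genes tested. The median log2 fold change was -0.32, and that of all genes -0.0413. The count of lower genes depended on scaling more than in WT, at 30 with upper-quartile scaling and 35 with totals alone.

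Of the 19 S-phase genes 10 were lower, 6 were higher and 3 did not pass, with a median of -0.86. Mcm2 went from 14.5, 15.3 and 16.1 CPM to 1.84, 2.26 and 2.36 CPM (log2 fold change -2.83 ± 0.134, adjusted p = 3.61e-12). E2f1 went from 18.9, 17.1 and 20.1 CPM to 4.60, 5.57 and 4.85 CPM (-1.90 ± 0.102, adjusted p = 2.07e-11). Both genes had all LPS libraries below all PBS libraries. The risers were Ccne1, from 1.47, 1.72 and 1.95 CPM to 11.9, 16.5 and 14.2 CPM (3.05 ± 0.143, adjusted p = 2.98e-12), Mcm6 (1.47 ± 0.0736), E2f8 (1.60 ± 0.107), Mcm10 (1.22 ± 0.182), Tyms (0.85 ± 0.102, not called with totals alone) and Cdt1. The rise of Cdt1, 0.17 ± 0.0744 with an adjusted p of 0.0435, was lost in 9 of the 12 fits that left out 1 library, with no filter and with a minimum of 10 counts in every library, and it was called lower with upper-quartile scaling (-0.18, adjusted p = 0.0232) and with totals alone (-0.63, adjusted p = 2.23e-07).

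Of the 25 mitotic genes 9 passed as lower, a share (36.0%) near that of all genes tested, 3 passed as higher and 13 did not pass. Their median was -0.25. This count depended on scaling, with 17 lower with upper-quartile scaling and 22 with totals alone, whereas in WT those settings gave 22 and 23. The falls that passed included Kif23 (-2.50 ± 0.243, adjusted p = 5.76e-08), Bub1 (-1.69 ± 0.348, adjusted p = 0.000299, on 2 to 7 counts per LPS library), Aurkb (-1.34 ± 0.231) and Ccnb1 (-1.13 ± 0.207). Aurkb encodes the kinase of the chromosomal passenger complex, and Ccnb1 the cyclin that drives entry into mitosis. Spag5, which encodes the spindle protein astrin, was at or under the floor in every KO-labelled LPS library, at 2 to 3 counts, and was at least 2.92-fold lower than with PBS. The calls for Cdk1 and Top2a depended on single libraries. That of Cdk1 was lost without replicate 2 or 3 of either KO-labelled group (log2 fold change -0.53 to -0.50, adjusted p 0.054 to 0.079), and that of Top2a without replicate 1 of KO LPS (-0.36, adjusted p = 0.0553).

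The mitotic genes that did not pass included Bub1b and Plk1. Bub1b, the gene of the checkpoint protein BUBR1, had 4.34, 4.18 and 5.10 CPM with PBS and 3.93, 4.77 and 4.79 CPM with LPS. Plk1, the Polo-like kinase of mitotic entry, had 1.68, 1.47 and 1.59 CPM with PBS and 1.90, 2.02 and 1.37 CPM with LPS. In both genes the groups overlapped, and their log2 fold changes were -0.01 ± 0.129 and 0.16 ± 0.196. Bub1b was called lower with upper-quartile scaling (-0.369, adjusted p = 0.0132) and with totals alone (-0.814). The sign of the value for Plk1, Ube2c and Prc1 turned with totals alone, to -0.64, -0.70 and -0.67, and each was then called lower. The 3 mitotic risers were Tpx2, from 6.30, 6.39 and 6.06 CPM to 36.0, 35.7 and 37.7 CPM (2.54 ± 0.0987, adjusted p = 2.33e-13), Mki67 and Cenpe. Mki67 (gene 17345, chromosome 7 from 135689784 to 135716450) went from 6.55, 4.84 and 6.62 CPM to 47.6, 35.4 and 48.1 CPM. This is a log2 fold change of 2.86 ± 0.202 (adjusted p = 3.59e-08) on 579 to 775 counts per LPS library. Cenpe went from 0.770, 0.807 and 0.815 CPM to 2.45, 2.20 and 2.49 CPM (1.57 ± 0.205, adjusted p = 2.26e-06). All LPS libraries lay above all PBS libraries in these 3 genes.

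The genotype label was compared next in cells with PBS. Resting KO-labelled cells had less RNA of nearly all of these genes. Of the 44 genes, 38 were lower, none were higher and 6 did not pass, while 13.0% of all genes tested were lower and 12.3% higher. The count of 0 higher members was also 0 at an unadjusted p under 0.05 in edgeR and 0 with DESeq2, but Cdt1 was called higher with totals alone (0.194, adjusted p = 0.0453), with only the libraries compared (0.144, adjusted p = 0.0364) and with the GC correction (0.266, adjusted p = 0.00279). The median log2 fold change was -1.10 over the 44 genes and 0.000364 over all genes tested. Without replicate 3 of KO PBS, the library that lacked skeletal muscle markers (values given with the marker lists), 36 were lower and 0 higher.

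Of the mitotic genes, 24 of 25 were lower, with a median of -1.26. Of the 19 S-phase genes, 14 were lower, with a median of -0.56. Plk1 had 6.22, 5.19 and 5.47 CPM in WT and 1.68, 1.47 and 1.59 CPM in KO-labelled libraries (log2 fold change -1.83 ± 0.146, adjusted p = 2.57e-07). Ccna2 had 8.68, 9.09 and 10.4 CPM against 3.64, 3.23 and 2.83 CPM (-1.54 ± 0.119, adjusted p = 1.73e-07). Neither gene had overlapping groups. Spag5 had the largest difference, 2.13, 2.15 and 1.79 CPM against 0.420, 0.527 and 0.673 CPM (-1.90 ± 0.230, adjusted p = 2.06e-05).

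Nusap1, a microtubule-bundling protein, differed by -1.75 ± 0.257, Ube2c, the ubiquitin-conjugating enzyme that works with the anaphase-promoting complex, by -1.56 ± 0.137, Ccnb2 by -1.46 ± 0.220, and Birc5, the passenger protein survivin, by -1.41 ± 0.177. Top2a, the topoisomerase that untangles sister chromatids, had 11.2, 12.4 and 12.5 CPM in WT and 4.24, 4.60 and 5.67 CPM in KO-labelled libraries (-1.32 ± 0.119, adjusted p = 1.02e-06). The transcription factor genes Foxm1 and Mybl2 differed by -1.11 ± 0.136 and -1.09 ± 0.177. Cenpf was the mitotic gene that did not pass, with 0.832, 1.04 and 0.751 CPM against 0.840, 0.421 and 0.602 CPM. The smallest mitotic differences that passed were those of Kif23 (-0.52 ± 0.146) and Mki67 (-0.74 ± 0.218, adjusted p = 0.0272). Mki67 was no longer called with no filter on low counts, or without replicate 2 or 3 of WT PBS or replicate 1 or 2 of KO PBS (log2 fold change -0.78 to -0.58), nor was Kif23 without replicate 1 or 3 of WT PBS or replicate 2 of KO PBS (-0.51 to -0.34).

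In the S-phase class the largest differences were in Tk1 (-1.41 ± 0.187, adjusted p = 5.07e-05), Ccne1 (-1.26 ± 0.160), Cdc6 (-1.17 ± 0.190) and Rrm2 (-1.10 ± 0.107). The 6 subunits of the MCM ring were unevenly lower, from -0.26 ± 0.0854 for Mcm4 and -0.28 ± 0.0730 for Mcm3 to -0.85 ± 0.0837 for Mcm5. The call for Mcm4 was lost without any 1 of the 6 PBS libraries (-0.28 to -0.20), with DESeq2 (-0.24, adjusted p = 0.0596) and with totals alone (-0.207). The call for Mcm3 was lost without replicate 1 of either PBS group (-0.26 to -0.20) and that for Cdc45 without 4 of the 6 (-0.56 to -0.48). Besides Cenpf, the genes that did not pass were Cdt1 (0.15 ± 0.0730), Pcna (-0.06 ± 0.0816), Tyms (-0.03 ± 0.102), E2f1 (-0.20 ± 0.0784) and Ccne2 (-0.99 ± 0.398).

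**Figure D3:**
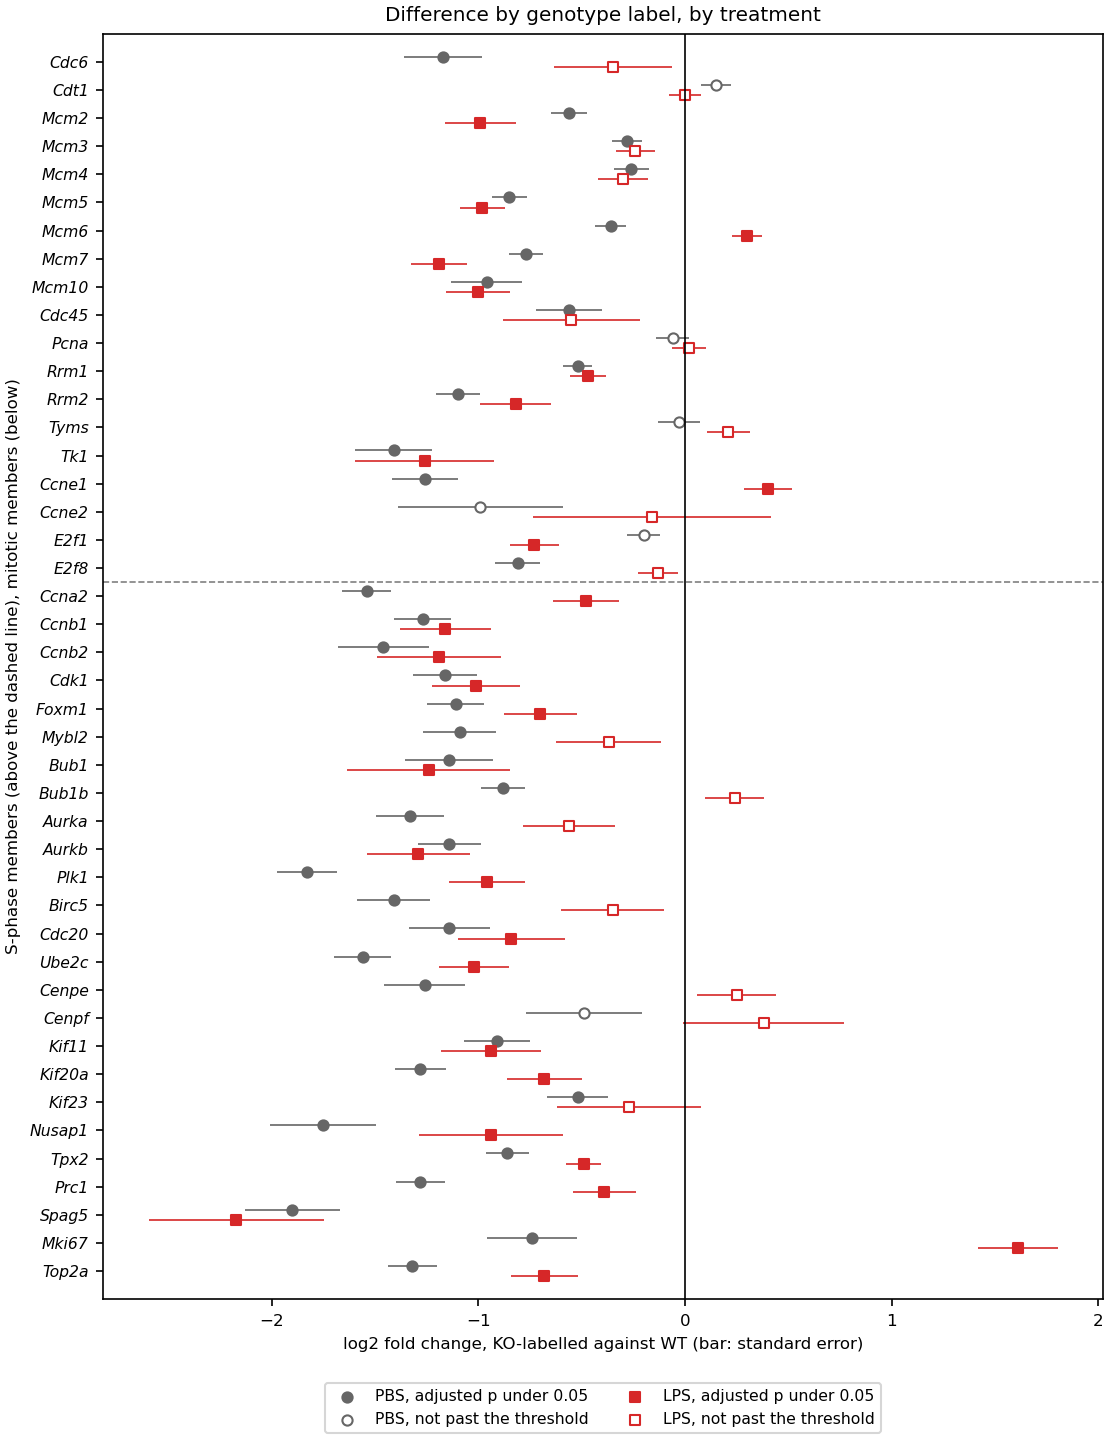
Log2 fold change of KO-labelled against WT cells (horizontal axis, standard error as bars) of each of the 44 genes, with PBS (circles) and with LPS (squares). Filled symbols passed an adjusted p of 0.05, and the dashed line separates S-phase from mitotic genes. With PBS 43 of the 44 circles lie left of 0, and with LPS Mki67 lies at 1.61 and Ccne1 at 0.40.

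With LPS the genotype comparison gave calls in both directions. Of the 44 genes, 25 were lower, 3 higher and 16 did not pass, against 19.3% lower and 22.1% higher over all genes tested. The medians were -0.56 over all 44 genes, -0.68 over the mitotic and -0.35 over the S-phase genes. Without WT LPS replicate 1 the counts were 25 lower and 3 higher. Among the genes that did not pass, Mcm4, Aurka, Mcm3 and Cdc45 were called lower in 8, 6, 5 and 1 of the alternative fits. Cdt1 was called higher in edgeR with the GC correction (0.22, adjusted p = 0.00808). The share of called genes that were higher, 53.4% over the whole table, was 37.9% with totals alone and 41.6% with upper-quartile scaling, and with PBS it was 48.6% against 61.6% with totals alone.

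Several genes were lower with LPS at low levels. Spag5 was at least 4.11-fold lower in KO-labelled LPS libraries, which were at the floor, than in WT LPS libraries. Aurkb had 2.08, 1.82 and 1.86 CPM in WT and 0.921, 0.918 and 0.497 CPM in KO-labelled libraries (log2 fold change -1.29 ± 0.248, adjusted p = 0.000578). Mcm7 had 6.07, 5.18 and 5.64 CPM against 2.64, 2.69 and 2.05 CPM (-1.19 ± 0.135, adjusted p = 4.86e-06), and Mcm2 differed by -0.99 ± 0.170. None of these groups overlapped. Tpx2, high in both LPS groups, was lower in the KO-labelled by 0.49 ± 0.0848 (adjusted p = 0.000248).

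The 3 genes higher in KO-labelled cells with LPS also rose with LPS in those cells. Mki67 had 47.6, 35.4 and 48.1 CPM against 18.4, 12.4 and 12.4 CPM in WT (1.61 ± 0.192, adjusted p = 4.48e-05). It remained called in all 12 fits that left out 1 library. Mcm6 had 77.7, 77.4 and 88.2 CPM against 71.4, 62.7 and 63.8 CPM (0.30 ± 0.0718, adjusted p = 0.00331). Ccne1 had 11.9, 16.5 and 14.2 CPM against 11.2, 10.1 and 11.1 CPM (0.40 ± 0.116, adjusted p = 0.0115), which did not pass without replicate 2 of KO LPS (0.28, adjusted p = 0.0714). Among the genes lower in KO-labelled cells, the calls for Prc1 (-0.39 ± 0.151), Nusap1 (-0.94 ± 0.348), Ccna2 (-0.48 ± 0.161), Bub1 (-1.24 ± 0.395, on 2 to 13 counts per library) and Cdc20 (-0.84 ± 0.257) were lost in 10, 8, 4, 3 and 2 of the 12 fits without 1 library. In those fits their log2 fold changes were -0.40 to -0.31, -1.07 to -0.78, -0.48 to -0.39, -1.18 to -0.89 and -0.73 to -0.60. Prc1 was also not called with no filter, with DESeq2, with only the libraries compared or with the replicate block (-0.389, adjusted p = 0.0561), nor Cdc20 with the GC correction (-0.662, adjusted p = 0.0546).

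Whether LPS acted differently in the 2 genotypes was tested with the interaction of genotype with LPS in the same edgeR model. This term shares all 12 libraries with the comparisons above. It passed for 12 of the 44 genes, 11 with a more positive and 1 with a more negative LPS effect in KO-labelled cells. The shares over all genes tested were 9.78% and 8.26%. The share of called genes that were higher was 54.2% over the whole table, 24.4% with totals alone and 43.1% with upper-quartile scaling. Of the mitotic genes 8 passed upwards and 0 downwards (0 also at an unadjusted p under 0.05 and 0 with DESeq2), and of the S-phase genes 3 passed upwards and 1 downwards.

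Set side by side, the genes with a positive interaction were of 2 kinds. In the first kind the gene rose with LPS in KO-labelled cells, and by more than in WT. Mki67 had the largest interaction, 2.35 ± 0.290 on the log2 scale (adjusted p = 0.000222), followed by Ccne1 (1.66 ± 0.198), Cenpe (1.51 ± 0.274), E2f8 (0.68 ± 0.145) and Mcm6 (0.66 ± 0.103). In the other kind LPS lowered the gene in WT, while in KO-labelled cells it was already low with PBS and the fitted change with LPS was smaller. These were Bub1b (1.12 ± 0.180), Birc5 (1.06 ± 0.311), Ccna2 (1.05 ± 0.203), Prc1 (0.89 ± 0.195), Plk1 (0.86 ± 0.242) and Top2a (0.64 ± 0.206). E2f1 was the gene with a deeper fall in KO-labelled cells (-0.53 ± 0.142, adjusted p = 0.0173). The values for Plk1, Birc5, Top2a and E2f1 fell short of the threshold in 4, 7, 9 and 1 of the 12 fits without 1 library, at 0.75 to 0.81, 0.99 to 1.04, 0.47 to 0.67 and -0.47. The interaction of Top2a was also not called with upper-quartile scaling, totals alone or the GC correction (0.504 to 0.595, adjusted p 0.0522 to 0.0959).

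Summed over a class, these patterns give each library 1 value. The 25 mitotic genes summed to 129 to 137 CPM in WT PBS, 116 to 127 in WT LPS, 56.4 to 63.9 in KO PBS and 109 to 123 CPM in KO LPS libraries. In the LPS libraries Tpx2 and Mki67 made up most of that sum. Without these 2 genes, left out after their values were seen, the other 23 summed to 110, 111 and 113 CPM in WT PBS, 54.0, 58.3 and 56.2 in WT LPS, 45.7, 45.2 and 51.2 in KO PBS and 35.5, 37.8 and 36.9 CPM in KO LPS. The 19 S-phase genes summed to 423 to 434, 373 to 388, 355 to 360 and 365 to 382 CPM in the same order. A large part of this sum was Pcna, at 149 CPM on average in WT PBS and 155 in KO LPS. Without Pcna the other 18 summed to 279 to 285, 217 to 243, 207 to 220 and 208 to 231 CPM. In KO LPS Mcm6 made up 81.1 CPM of that on average.

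Markers of other cells in the exudate moved with the genotype label too. The 6 fibroblast markers, such as Col1a1 and Col1a2, summed to 75.1 to 88.6 CPM in WT PBS and 32.9 to 46.2 in KO PBS, and all 5 that were tested were lower in KO-labelled cells with either treatment. With LPS they were at 119 to 132 in WT and 57.0 to 69.5 CPM in KO-labelled libraries. Markers of resident peritoneal macrophages summed to 55.3 to 55.8 in WT PBS and 37.7 to 39.3 in KO PBS, and to 52.0 to 59.7 and 30.5 to 31.4 CPM with LPS. Most of that sum was Cd5l, which was lower in KO-labelled cells with PBS (-0.60 ± 0.0582), as were Gata6, Timd4 and Selp, whereas Icam2 was higher (0.50 ± 0.143). Mesothelial markers summed to 9.08 to 9.72 and 4.85 to 7.21 CPM with PBS and to 9.19 to 11.2 and 6.08 to 9.02 with LPS. Skeletal muscle markers were at 17.2 to 22.1 CPM in WT PBS and 27.8 to 33.4 in WT LPS, but at 0.106 to 18.7 in KO PBS, where 1 of the 3 libraries lacked them, and at 0.123 to 0.249 in KO LPS. Of the mast cell markers, Kit was at 3.22 CPM on average in KO LPS and at 1.10 CPM in WT LPS. With PBS it went the other way, at 0.27 CPM in KO-labelled and 0.718 CPM in WT cells (log2 fold change -1.39). The other 4 were at or under the floor in every library. Markers of monocyte-derived macrophages summed to 955 to 1150 in WT PBS and 837 to 909 CPM in KO PBS, and to 1800 to 2830 and 1710 to 2260 with LPS. In this sum Fn1, which did not pass by genotype, had the highest level of the list in every group (704 to 1530 CPM on average), while the members that passed were higher in KO-labelled cells, Chil3 with PBS (0.81 ± 0.0961) and both Chil3 (0.93 ± 0.0974) and Ly6c2 (1.64 ± 0.116) with LPS. The part of these cells in the cell cycle values was not tested.

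**Figure D4:**
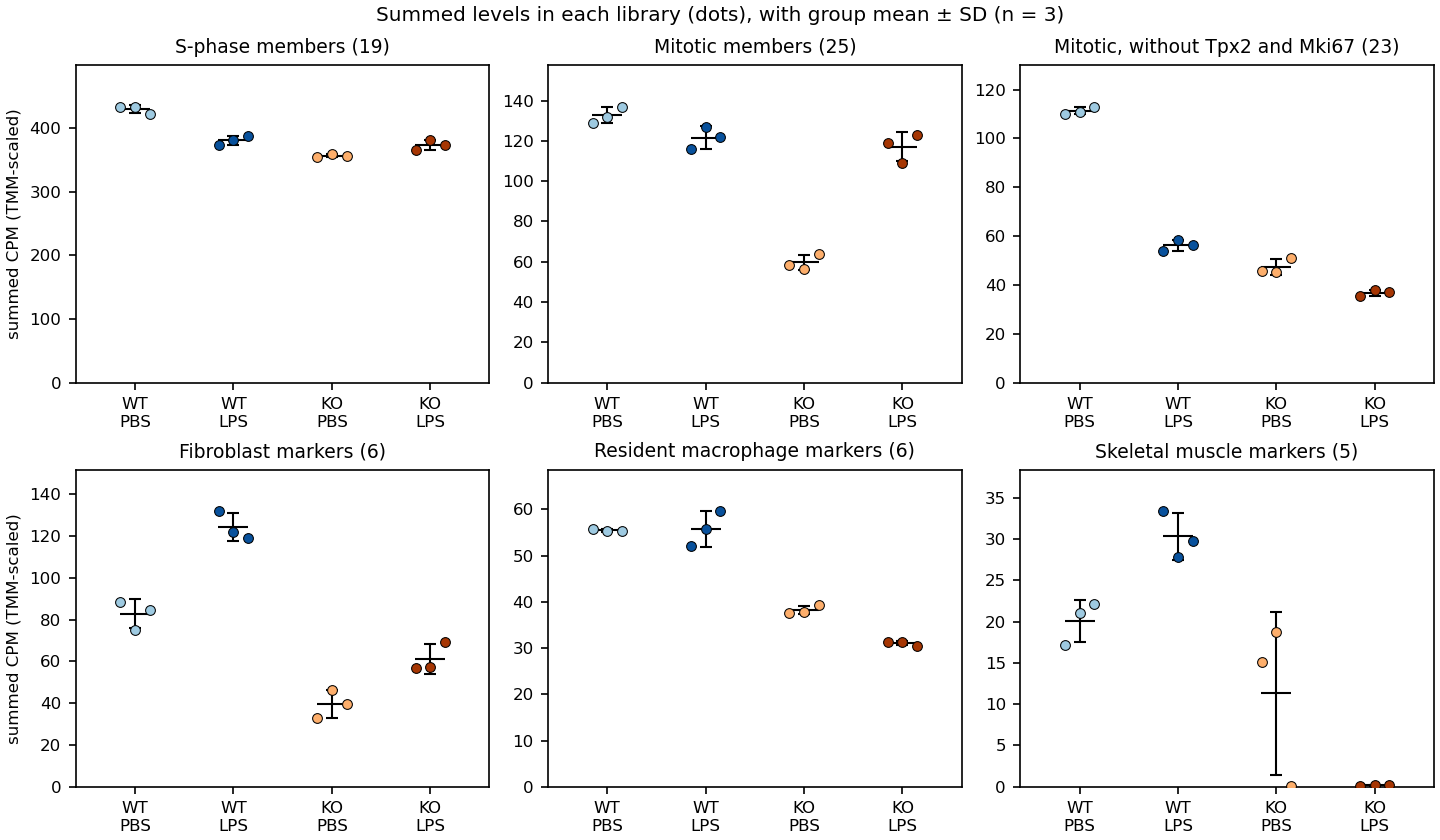
Summed CPM (vertical axis, TMM-scaled, from 0) in each library of the S-phase genes, the mitotic genes with and without Tpx2 and Mki67, and markers of fibroblasts, resident macrophages and skeletal muscle. Dots are libraries, and the bar and whiskers are the group mean and SD (n = 3). The 23 mitotic genes and the fibroblast markers are both lower in the KO-labelled PBS than in the WT PBS libraries, and the skeletal muscle markers are near 0 in 1 KO PBS and all KO LPS libraries.

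A further 114 genes of the cell cycle machinery, in 7 lists, placed these results in their pathway, and 112 of them were tested. With LPS in WT 67 were lower and 26 higher (59.8% and 23.2%, against 40.2% and 36.5% of all genes tested), and in KO-labelled cells 62 and 32 (55.4% and 28.6%, against 41.1% and 38.8%). Between the genotype labels 39 were lower and 5 higher with PBS (34.8% and 4.46%, against 13.0% and 12.3%), and 36 and 15 with LPS (32.1% and 13.4%, against 19.3% and 22.1%). Of the 25 other mitotic genes 18 were lower and 0 higher by genotype with PBS, with a median of -0.71. Of the 37 other replication factors 13 were lower and 0 higher, with a median of -0.20. In the same comparison 2 of 6 G1 cyclins and kinases were lower and 0 higher, 2 of 8 inhibitors and pocket proteins were lower and 2 higher, and 1 of 12 other E2F and DREAM subunits was lower and 0 higher. Of 15 checkpoint genes 2 were lower and 3 higher, and of 9 growth control genes 1 was lower and 0 higher. No difference between the lists was tested.

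The upstream regulators named here were chosen mainly for the largest called change in each list, and some changed widely with LPS. Medians of their lists in WT were 0.22 (G1 cyclins and kinases), -1.17 (CDK inhibitors and pocket proteins), -0.18 (other E2F and DREAM subunits) and 0.87 (growth control). Ccnd2, the gene of the G1 cyclin D2, went from 1.55, 1.18 and 1.11 CPM to 577, 475 and 474 CPM in WT, and from 0.805, 0.807 and 1.31 CPM to 561, 464 and 593 CPM in KO-labelled cells (log2 fold changes 8.63 ± 0.164 and 9.11 ± 0.170). Cdkn1a, which encodes the CDK inhibitor p21, went from 37.0, 37.7 and 36.6 CPM to 716, 640 and 648 CPM in WT and from 36.3, 37.3 and 40.6 CPM to 873, 890 and 895 CPM in KO-labelled cells. Its genotype difference was 0.04 ± 0.0626 with PBS (adjusted p = 0.705), and it was higher in KO-labelled cells with LPS (0.41 ± 0.0580, adjusted p = 4.42e-05). In WT the kinase genes Cdk4 and Cdk2 fell by 1.5 and 1.62 on the log2 scale, whereas Cdk6 rose by 0.23. The activator E2f2 fell by 5.23 ± 0.193, from 9.73, 10 and 8.65 CPM to 0.231, 0.228 and 0.282 CPM. Rbl1, the pocket protein p107, rose by 2.77 ± 0.0637, and its relative Rbl2, p130, fell by 2.12 ± 0.0831. Myc fell by 1.51 ± 0.105 and Mxd1, an antagonist of MYC, rose by 4.65 ± 0.0607.

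Replication and mitosis genes outside the 44 mostly fell with LPS in WT, but also included risers. Of 37 other replication factors 28 were lower and 4 higher, and of 25 other mitotic genes 17 were lower and 3 higher. Samhd1, which degrades deoxynucleotides, rose from 199, 192 and 188 CPM to 2060, 2180 and 2140 CPM in WT (3.46 ± 0.0580), and Pttg1, the gene of securin, rose from 10.4, 11.3 and 11.6 CPM to 92.8, 133 and 128 CPM (3.41 ± 0.124). Dck, a salvage kinase for deoxynucleosides, rose by 2.78 ± 0.0803. Falls in WT included those of Gmnn, which encodes the licensing inhibitor geminin (-2.82 ± 0.156), Espl1, which encodes separase (-2.85 ± 0.229), and the phosphatase gene Cdc25b (-4.25 ± 0.162).

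By genotype label, Ccnd1, the cyclin D1 gene, was lower in KO-labelled cells with PBS, at 6.86, 5.65 and 5.81 CPM against 13.7, 12.8 and 14.6 CPM (-1.17 ± 0.0876, adjusted p = 1.22e-07), and with LPS (-1.32 ± 0.0981). Uhrf1, which maintains DNA methylation behind the replication fork, was lower with PBS, at 3.78, 4.28 and 4.53 CPM against 11.1, 10.3 and 10.5 CPM (-1.34 ± 0.0989, adjusted p = 1.17e-07). In neither gene did the groups overlap. Gadd45a, a gene induced by DNA damage and stress, had the largest difference between genotypes in these lists under LPS, at 31.2, 30.2 and 26.3 CPM in KO-labelled against 7.75, 9.62 and 9.59 CPM in WT cells (1.70 ± 0.101, adjusted p = 4.98e-09). LPS lowered it in WT (-0.66 ± 0.104) and raised it in KO-labelled cells (1.5 ± 0.0938), an interaction of 2.16 ± 0.139 (adjusted p = 8.5e-08). Csf1r, the receptor for the macrophage growth factor CSF1, fell with LPS by 0.54 ± 0.106 in WT and 1.12 ± 0.107 in KO-labelled cells, and was lower in KO-labelled cells with LPS (-0.53 ± 0.107). Between the genotype labels with LPS, Ccnd3 differed by -0.20 ± 0.0653 (adjusted p = 0.0213), which was 0.01 after correction for GC content, while Rb1 (0.12 ± 0.0904) and Myc (0.18 ± 0.120) did not pass. With PBS Myc was lower (-0.36 ± 0.0910, adjusted p = 0.00888) and Rb1 higher (0.41 ± 0.0691, adjusted p = 0.000487) in KO-labelled cells.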

How the data were processed

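RNA of peritoneal macrophages was sequenced as single 50-base reads on a BGISEQ-500. The authors deposited 1 table per library of expected counts, estimated per gene from the aligned reads. The submitters' processing notes name Bowtie2, RSEM 1.3.1 and GRCm38.p6, whereas the published methods name STAR and HTSeq. Fractional values, 24.6% to 26.9% per library, were rounded to whole numbers. The strand setting of the counting is not given in the sources used here.

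The 12064 genes kept by filterByExpr were fitted in edgeR 4.0.16 (R 4.3.3, limma 3.58.1) with TMM scaling and a quasi-likelihood model of 4 groups over all 12 libraries, with Benjamini-Hochberg adjustment over all genes. The common biological coefficient of variation was 6.99%. The p-values measure the spread between libraries of the same group, estimated for each gene over all 4 groups together and moderated across genes. A comparison of PBS libraries thus also carries the spread of the LPS groups. SE is the absolute log2 fold change over the square root of F. Totals were 21546274 to 22017005 per library, and 3 counts, used as the floor, were 0.105 to 0.187 CPM, for counting error only. The model was tested on simulated data, in which 200 of 12064 genes were shifted by 1 on the log2 scale, and it recovered 99% of them for LPS in WT and 94% for the interaction. The shifted genes were drawn from those with higher counts, equally up and down, with the same spread for every gene. These rates therefore do not carry over to members with few counts or to the wide LPS change in these libraries.

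The members and all lists (8 of members, 7 of pathway genes and 11 of cell type markers) were chosen with earlier results of these data known. All members are accounted for. Of pathway genes, up to 3 per list and comparison with the largest change among those called and at least 5 CPM in the higher group are named, besides Cdkn1a, Ccnd1, Ccnd2, Ccnd3, Myc, Csf1r and Rb1, from which a selection is printed. Of 16920 genes, 16803 were found in the NCBI gene table and 16408 had a transcript GC content. The alternatives were RLE, upper-quartile and totals-only scaling, no filter, a minimum of 10 counts throughout, only the libraries compared, DESeq2 1.42.0, a replicate block, a GC correction (lowess, span 0.3) with and without the block, leaving out each library, and a change over 1 log2 unit.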

Additional observations from a re-analysis of the deposited data

Results flagged for a closer look

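The LPS response differed between the genotype labels for 12 of the 44 genes by the interaction term of edgeR's quasi-likelihood test with an adjusted p under 0.05. Each difference is given as the response in KO-labelled minus that in WT cells on the log2 scale, with the responses in WT and in KO-labelled cells in brackets. For S-phase genes the values were Mcm6 0.66 (0.81 and 1.47), Ccne1 1.66 (1.39 and 3.05), E2f1 -0.53 (-1.37 and -1.90) and E2f8 0.68 (0.92 and 1.60). For mitotic genes they were Ccna2 1.05 (-1.19 and -0.14), Bub1b 1.12 (-1.14 and -0.01), Plk1 0.86 (-0.71 and 0.16), Birc5 1.06 (-1.27 and -0.21), Cenpe 1.51 (0.06 and 1.57), Prc1 0.89 (-0.76 and 0.13), Mki67 2.35 (0.51 and 2.86) and Top2a 0.64 (-1.15 and -0.51). The value for Top2a did not pass with upper-quartile scaling, totals alone or the GC correction.

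The same test picked out 16 further named genes, including the targeted gene. Those with a more positive LPS effect in KO-labelled cells were Btg1 0.67 (0.87 and 1.55), Btg2 0.58 (1.48 and 2.06), Cdk6 0.37 (0.23 and 0.60), Cdkn1a 0.37 (4.17 and 4.54), E2f5 0.50 (2.13 and 2.63), Gadd45a 2.16 (-0.66 and 1.5), Myc 0.54 (-1.51 and -0.96), Rpa2 0.62 (-0.19 and 0.42) and Uhrf1 1.03 (-1.08 and -0.05). Those with a more negative effect were Ccng2 -0.46 (2.07 and 1.61), Csf1r -0.58 (-0.54 and -1.12), Mxd4 -1.01 (-3.38 and -4.39), Rbl2 -0.40 (-2.12 and -2.51), Rfc2 -0.56 (-0.97 and -1.53), Wee1 -0.41 (-0.12 and -0.53) and Ythdf1 -0.42 (2.21 and 1.79). No explanation was tested for any of these differences.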

How the results depend on the processing

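The counts of members called lower and higher moved by over 1.5 times in these cases. With totals alone 4 were higher with LPS in WT, 35 lower with LPS in KO-labelled cells, 1 higher in KO-labelled cells with PBS and 3 had a negative interaction. With upper-quartile scaling 30 were lower with LPS in KO-labelled cells. One member, Cdt1, was higher in KO-labelled cells with PBS with only the libraries compared (1), with the GC correction (1) and with the GC correction and the replicate block (1). Counting only changes over 1 log2 unit, 3 were higher and 21 lower with LPS in WT, 23 lower with PBS by genotype, 1 higher and 9 lower with LPS by genotype, and 6 and 0 had a positive and a negative interaction. Leaving out each library gave 7 to 8 higher and 31 to 34 lower with LPS in WT, 8 to 10 and 18 to 19 in KO-labelled cells, 0 and 34 to 39 by genotype with PBS, 2 to 3 and 22 to 25 with LPS, and 8 to 13 positive and 0 to 1 negative interactions, with 0 negative without replicate 1 of KO LPS.

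Directions reversed as follows. With totals alone the LPS effect in WT was -0.346 for Cdt1, -0.619 for Pcna, -0.052 for Tyms, -0.601 for Cenpe, -0.153 for Mki67 and -0.454 for Ccnd1, and in KO-labelled cells -0.629 for Cdt1, -0.681 for Pcna, -0.641 for Plk1, -0.699 for Ube2c, -0.67 for Prc1 and -0.746 for Ccnd1. With upper-quartile scaling it was -0.266 for Pcna and -0.101 for Ccnd1 in WT, and -0.184 for Cdt1, -0.236 for Pcna and -0.301 for Ccnd1 in KO-labelled cells. By genotype with LPS, Cdt1 was 0.22 and Ccnd3 0.01 with the GC correction, and 0.221 and 0.01 when the replicate block was added. The cause was not tested. Upper-quartile scaling moved the median of all genes by -0.311 in WT and -0.356 in KO-labelled cells with LPS, and the GC correction by 0.115 and 0.106.

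Over all genes, totals alone called 2223 higher and 8247 lower with LPS in WT, against 4404 and 4850, 2202 and 8387 in KO-labelled cells, against 4682 and 4953, and 627 and 1945 in the interaction, against 1180 and 996. With only the libraries compared 2275 genes were higher by genotype with PBS, against 1486. Without replicate 1 or 2 of KO PBS or replicate 1 of WT PBS, 918, 1028 and 949 were lower, against 1572, and without replicate 2 of KO PBS 738 had a positive interaction.

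With the replicate number as a block the counts of higher and lower members were 8 and 34, 9 and 19, 0 and 38, 3 and 24, and 11 and 1 in the order above. Of 18 pairs of same-numbered libraries 1 had deviations correlated over 0.1 (range -0.0758 to 0.127), so the numbers were not taken as pairs. Among the members' calls, the block removed that of Prc1 by genotype with LPS. With LPS, Spag5, Ccne2, Cenpf and Bub1 had 2 to 18 counts per library. Further members were as low in KO LPS, such as Tk1 (5 to 12), Kif23 (7 to 12), Cdc45 (7 to 18) and Aurkb (8 to 15).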
